A study of Mus musculus with 6 samples.

Results

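The MEF2 transcription factors of the mouse are encoded by 4 genes, *Mef2a*, *Mef2b*, *Mef2c* and *Mef2d*, and these were taken by symbol from the 54525 gene rows of the C2C12 count files. RNA-seq covered 3 myoblast cultures at day 0 (D0) and 3 myotube cultures taken on day 5 of differentiation (D5). C2C12 is an established mouse myoblast line grown in medium with fetal bovine serum and differentiated in medium with horse serum. Both groups are wild type (WT) and carry the treatment label None, and the cell type label reads Mouse Muscle Myoblasts for both, so the day in the sample title is the only label that separates them. All libraries come from 1 cell line and no time point lies between D0 and D5 here.

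MEF2 proteins (myocyte enhancer factor 2) bind A/T-rich DNA as dimers, through a MADS box and an adjoining MEF2 domain at the amino terminus. In muscle they act together with the bHLH factors of the MYOD family on genes of contraction and metabolism. Class IIa histone deacetylases bind MEF2 and repress it, calcium-dependent kinases move these deacetylases out of the nucleus on 14-3-3 proteins, and p38 kinases phosphorylate MEF2 itself.

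The D0 libraries held from 36555048 to 40895840 counts on genes and the D5 libraries from 25449759 to 25811300. Levels are CPM, the reads of a gene per 1000000 gene counts after TMM scaling in edgeR. The groups were tested against each other with edgeR's quasi-likelihood test over 16290 genes, with Benjamini-Hochberg adjustment over those genes. Markers of proliferation and of muscle differed between the groups. The summed level of 6 proliferation markers, among them *Mki67*, ran from 1824 to 1835 CPM at D0 and from 102 to 111 CPM at D5, and *Myog* rose 187-fold. Of 10 muscle identity markers 7 were higher at D5 and 3 were lower, namely *Myod1*, *Myf5* and *Pax7*, with log2 fold changes of -0.71, -2.32 and -1.71. Of all genes tested, 42.2% were higher and 40.8% lower. Of 30 markers of adipocytes, osteoblasts, neurons, endothelium, leukocytes and cardiomyocytes, 15 had at most 3 counts in every library, the limit under which a gene was treated as not detected. Among the exceptions, the highest level at D5 was that of the cardiac myosin *Myh6*, with 26.7 ± 3.09 CPM (SD, n = 3). It was not alone. The adipocyte marker *Cebpa* had 23.99 ± 0.221 CPM at D5 (SD, n = 3) and a log2 fold change of 5.92. Among the other adipocyte markers, *Adipoq* and *Plin1* had at most 1 count in a library and *Lep* had 0. *Fabp4* had 6, 11 and 1 counts at D0 and 2, 1 and 1 at D5. The cardiomyocyte marker *Gata4* overlapped between the groups, with means of 16.9 CPM at D0 and 16.3 CPM at D5. *Nkx2-5*, of the same list, was lower at D5, with means of 4.62 and 2.48 CPM. *Nppa* and *Hcn4*, also cardiomyocyte markers, had at most 2 and 3 counts in a library. In bulk RNA a change in the share of cells that express a gene and a change in RNA per cell cannot be told apart.

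*Mef2a*, *Mef2c* and *Mef2d* rose in myotubes, and *Mef2b* was scarcely detected in either group. *Mef2c* went from the edge of detection to 159 CPM, while *Mef2a* and *Mef2d*, abundant already in myoblasts, rose 2.00-fold and 2.33-fold. The 3 genes that could be tested all passed an adjusted p of 0.05 with higher levels at D5, where 42.2% of all genes tested did so. *Mef2b* did not pass the filter on low counts.

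*Mef2c* (ENSMUSG00000005583.16, chromosome 13 of GRCm38 from 83504034 to 83667080, plus strand) was covered by 23, 29 and 24 reads in myoblasts and by 3920, 4134 and 3829 reads in myotubes. Every D5 library lay above every D0 library, and the replicates within a group lay close together. The myoblast mean was 0.633 ± 0.0498 CPM and the myotube mean 159 ± 7.45 CPM (SD, n = 3 each), which differ 251-fold. On the log2 scale the difference was 7.96 with a standard error of 0.074 (edgeR, adjusted p = 1.7e-36), the value ranked 197 from the highest among the 16290 genes. *Mef2c* was detected in myoblasts, since the 76 counts of the 3 D0 libraries together give 0.635 CPM with a 95% exact Poisson interval from 0.50 to 0.794, which covers counting error only.

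*Mef2a* (ENSMUSG00000030557.17, chromosome 7 from 67231163 to 67372858, minus strand) had 185, 190 and 190 CPM in the D0 libraries and 385, 370 and 375 CPM in the D5 libraries. The groups did not overlap. Its mean rose from 188 ± 2.84 to 377 ± 7.78 CPM (SD, n = 3 each), or by 1.00 on the log2 scale with a standard error of 0.032 (edgeR, adjusted p = 1.1e-22).

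*Mef2d* (ENSMUSG00000001419.17, chromosome 3 from 88142372 to 88172086, plus strand) had 131, 124 and 131 CPM at D0 and 296, 299 and 307 CPM at D5. Its mean rose from 129 ± 4.12 to 301 ± 5.48 CPM (SD, n = 3 each), or by 1.22 on the log2 scale with a standard error of 0.034 (edgeR, adjusted p = 2.1e-24). All 3 D5 libraries were again above all D0 libraries, a position held by 42.2% of the genes tested.

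*Mef2b* (ENSMUSG00000079033.10, chromosome 8 from 70139711 to 70167488, plus strand) was covered by 4, 7 and 7 reads at D0 and 10, 6 and 3 reads at D5, and the groups overlapped. The ratio of its summed counts, D5 to D0 and per library size, was 1.69 with a 95% exact interval from 0.842 to 3.42, so a change in either direction was not detectable at this depth. Without a filter on low counts its log2 fold change was 0.69 (adjusted p = 0.297 in edgeR's test).

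**Figure D1:**
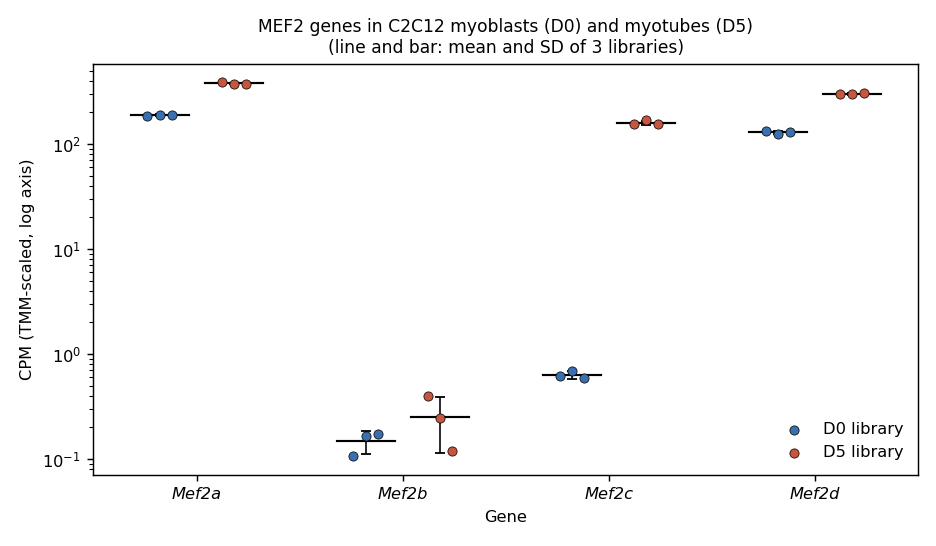
CPM of the 4 MEF2 genes on a log axis, 1 point per library (blue D0, red D5), with the mean and SD of 3 libraries as a line and bar. *Mef2c* moves from 0.633 to 159 CPM, *Mef2a* and *Mef2d* stay above 120 CPM in every library and are higher in all D5 libraries, and the *Mef2b* groups overlap under 0.4 CPM.

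The calls of *Mef2a* and *Mef2d* rest on scaling to the RNA that was sequenced. Each file also lists 92 ERCC spike-ins, synthetic RNAs that took from 0.720% to 2.09% of the counts, both extremes being D5 libraries. With scaling to these spike-ins, the median over all genes moved by -0.58 on the log2 scale. *Mef2a* was then at 0.43 (standard error 0.51, adjusted p = 0.539 in edgeR's test) and *Mef2d* at 0.65 (standard error 0.52, adjusted p = 0.335), neither past the threshold. Per spike-in count, *Mef2a* stood at 1.28, 2.05 and 0.710 times the D0 mean in D5 replicates 1, 2 and 3, and *Mef2d* at 1.44, 2.43 and 0.848 times. *Mef2c* was at 155, 278 and 86.8 times the D0 mean on the same scale and kept its call, with a log2 fold change of 7.43. The amount of spike-in per culture is not given in the sources used here, and its part in these values was not tested.

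**Figure D2:**
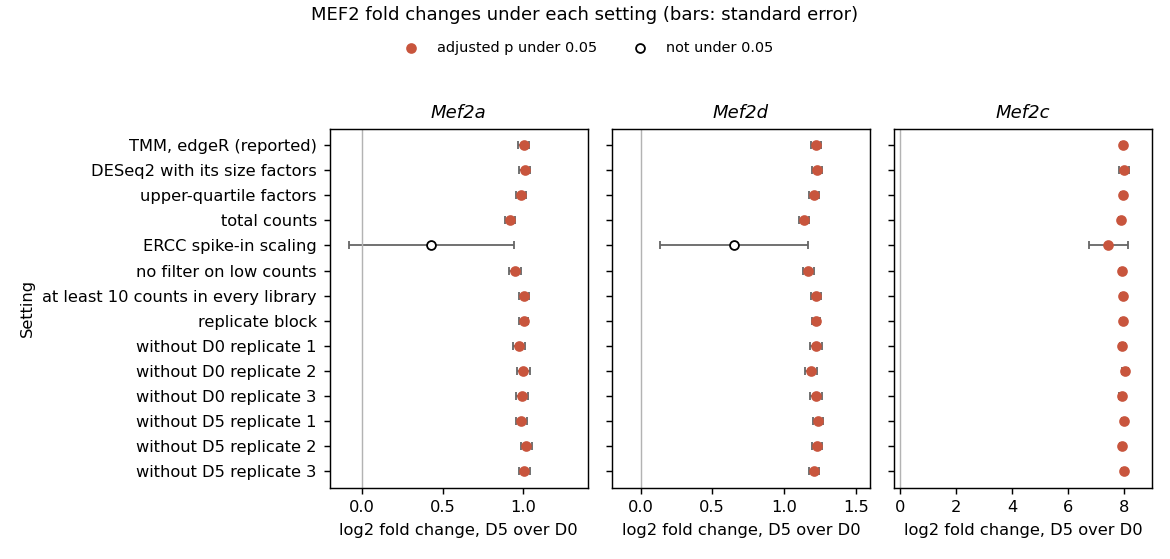
Log2 fold change of *Mef2a*, *Mef2d* and *Mef2c* (D5 over D0) in the reported fit and under each other setting, with the standard error as a bar. Filled points have an adjusted p under 0.05, and the open points, *Mef2a* at 0.43 and *Mef2d* at 0.65, are those scaled to the ERCC spike-ins.

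Reads of the 4 genes can be told apart from one another where they are long enough. No 50-base stretch of any transcript of one member occurs in a transcript of another member in the GENCODE M21 annotation. Of the 50-base stretches of *Mef2a*, 1.91% occur in transcripts of genes outside the family. For *Mef2b* this share was 0.87%, all in *Borcs8*, and *Mef2c* and *Mef2d* had none. The 2 longest exact matches between members lie in the coding sequence near its start, which encodes the DNA-binding part, and are printed here because they bound the confusion between paralogs. That of *Mef2b* and *Mef2c* has 31 bases from base 83 of both coding sequences, and that of *Mef2c* and *Mef2d* has 28 bases from base 197, counted from the first base of the start codon.
Mef2b and Mef2c: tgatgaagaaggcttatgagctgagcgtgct
Mef2c and Mef2d: tgctcaagtacaccgagtacaacgagcc
The longest match of *Mef2a* with any other member has 17 bases.

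Overlap with neighbouring genes was small. The exons of *Mef2c* share no base with another annotated gene. *Mef2d* shares 8.87% of its exonic length with the antisense transcript *1700113A16Rik*, which had from 12 to 23 counts in a library. *Mef2a* shares 2.06% with *Lysmd4* on the opposite strand, and *Mef2b* 4.42% with *Borcs8* on its own strand. *Borcs8*, whose span overlaps that of *Mef2b*, had from 320 to 511 counts in a library, far above the 3 to 10 of *Mef2b*. The strand setting of the counting is not stated, so the reads of the shared bases cannot be assigned.

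Levels of different genes were compared as TPM (transcripts per 1000000 transcripts), from the counts and the union of the exons of each gene. *Mef2d* was highest in both groups, with 74.4 ± 2.45 TPM at D0 and 156 ± 2.83 TPM at D5 (SD, n = 3 each). *Mef2a* followed with 44.3 ± 1.32 and 79.6 ± 3.25 TPM. *Mef2c* had 0.139 ± 0.0112 TPM at D0 and 31.4 ± 1.19 TPM at D5, and *Mef2b* 0.368 ± 0.0954 and 0.564 ± 0.319 TPM. The summed TPM of the family rose from 119 ± 2.91 to 267 ± 4.95 (SD, n = 3 each), a 2.24-fold difference. Of this rise 54.9% came from *Mef2d*, 23.8% from *Mef2a* and 21.1% from *Mef2c*, shares that are 34.4%, 35.9% and 29.6% when the longest transcript is taken as length. TPM, like CPM, is relative to the RNA sequenced, and with scaling to the spike-ins only *Mef2c* kept its call.

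The make-up of the family also changed, and shares within a library do not depend on how libraries are scaled. *Mef2c* was 0.113%, 0.130% and 0.108% of the summed MEF2 TPM in the D0 libraries and 11.6%, 12.4% and 11.3% in the D5 libraries. The share of *Mef2a* fell from 37.2% ± 0.979 to 29.8% ± 0.679, and that of *Mef2d* was 62.4% ± 1.05 at D0 and 58.3% ± 0.786 at D5 (SD, n = 3 each). For these 3 genes the D0 and D5 libraries did not overlap, and the exact two-sided permutation test gave p = 0.1, the smallest that 3 libraries against 3 allow. The *Mef2b* share was 0.308% ± 0.0767 at D0 and 0.210% ± 0.116 at D5, with overlapping groups and an exact permutation p of 0.2.

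The order of *Mef2a* and *Mef2d* depends on the length used. The union of exons is 14681 bases for *Mef2a* and 5985 for *Mef2d*, whereas the longest annotated transcripts have 5538 and 5401 bases. With the longest transcript as length, *Mef2a* led with 58.5% at D0 and 45.6% at D5, before *Mef2d* with 41.1% and 37.3%, and *Mef2c* reached 17.0% at D5. The order of *Mef2b* and *Mef2c* at D0 was likewise not settled, since *Mef2b* was higher in all 3 D0 libraries with the union of exons and in 2 of 3 with the longest transcript. Transcript isoforms cannot be told apart in counts per gene.

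**Figure D3:**
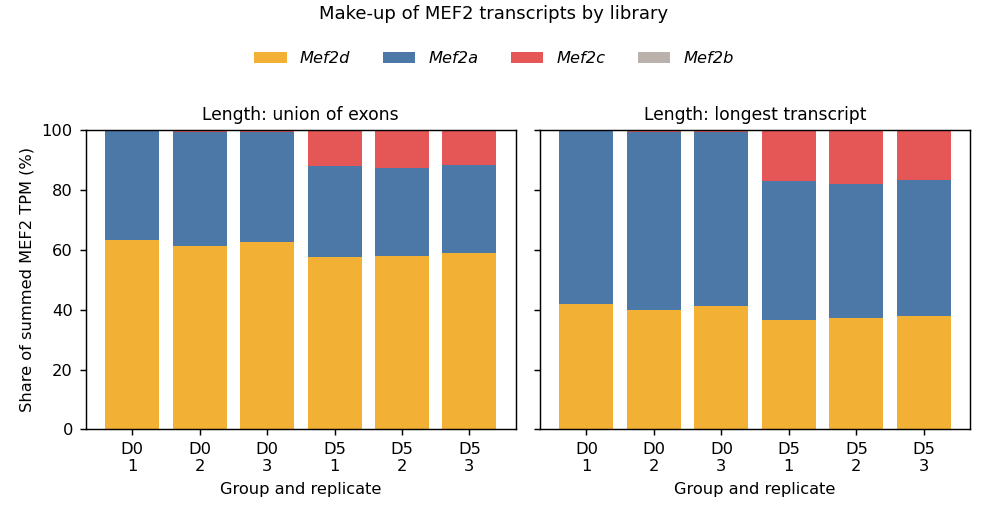
Share of each MEF2 gene in the summed MEF2 TPM (%), stacked for each of the 6 libraries, with the union of exons (left) or the longest transcript (right) as gene length. *Mef2c* is visible as a band in the D5 libraries, at 11.3% to 12.4% on the left, and the larger of *Mef2a* and *Mef2d* differs between the panels.

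Ratios within a library are free of both scaling and length when their change is taken. The log2 ratio of *Mef2c* to *Mef2d* changed by 6.75 from D0 to D5, and that of *Mef2a* to *Mef2c* by -6.98. The log2 ratio of *Mef2a* to *Mef2d* changed by -0.22, from -0.75 ± 0.062 to -0.97 ± 0.048 (SD, n = 3 each), and every D5 library had a lower ratio than every D0 library. Over the 6 pairs of members, the exact permutation p was 0.1 for the 4 ratios whose groups did not overlap, the smallest possible, and 0.15 after Benjamini-Hochberg adjustment over the pairs. The ratios of *Mef2a* and *Mef2d* to *Mef2b* overlapped between groups, with an exact permutation p of 0.7 for both.

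By profile, the genes most like *Mef2a* over the 6 libraries, with the smallest distance between log2 CPM values centred on the D0 mean among 13441 genes with at least 1 CPM, were *Macf1*, *Anxa7* and *Ier2*. They had log2 fold changes of 0.99, 1.01 and 1.01. Those nearest to *Mef2d* were *Chpt1*, *Trp53inp2* and *Glis2*, with 1.24, 1.25 and 1.22. Those nearest to *Mef2c* were *Fgf13*, *Col13a1* and *Crybg2*, which had 0 counts in all D0 libraries, so their distance depends on the prior count. Among genes with more than 3 counts in every D0 library, a limit chosen after the data were seen, the nearest to *Mef2c* were *Pgam2*, a muscle phosphoglycerate mutase, the myosin heavy chain *Myh2*, and *C1s1*, a complement protease, with log2 fold changes of 7.92, 7.85 and 8.18.

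Promoters are shown because MEF2 genes and many MEF2 targets can carry MEF2 sites of their own. The RefSeq windows (GRCm38.p6) span 250 bases before to 50 bases after each annotated start, and the MEF2 site, an A/T-rich motif of 10 bases, was searched on both strands. It occurs in 3.19% of 32851 windows. Of the MEF2 genes, *Mef2a* has the motif, from 2 bases before its start, while the windows of *Mef2b* and *Mef2d* and the 3 windows of *Mef2c* do not hold it. The site is in capitals with 20 bases on each side, 5′ to 3′ on the strand of the gene.
Mef2a, chr7:67372831-67372880, minus strand: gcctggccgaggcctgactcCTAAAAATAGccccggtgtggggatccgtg

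The first of the 3 annotated starts of *Mef2c* is the one at the start of the gene, and its 250 upstream bases hold 2 E-boxes (CANNTG, N for any base), the motif of the MYOD family, printed in capitals. An E-box is common, in 72.3% of all windows, and no order among the members can be read from it. The *Mef2b* window also holds 2, the third *Mef2c* window holds 1, and the windows of *Mef2a*, *Mef2d* and the second *Mef2c* start hold none. Which *Mef2c* start was used cannot be read from counts per gene.
Mef2c, chr13:83503784-83504033, plus strand: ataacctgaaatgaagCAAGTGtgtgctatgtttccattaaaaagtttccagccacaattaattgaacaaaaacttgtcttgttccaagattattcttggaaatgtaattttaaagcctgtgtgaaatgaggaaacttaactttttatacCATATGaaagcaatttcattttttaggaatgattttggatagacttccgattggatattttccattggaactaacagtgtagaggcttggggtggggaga

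Genes listed here as MEF2 targets rose for the most part. Their median log2 fold change was 5.65 over 16 genes, against 0.0022 over all genes tested. The 10 muscle identity markers, which share *Ckm* and *Des* with this list, had a median of 6.69. Whether the rise is particular to MEF2 targets was not tested. Of the 16, 14 were higher at D5, against 42.2% of all genes tested, *Jun* was lower and *Klf2* had no call. *Mb*, myoglobin, rose from 0.140 ± 0.0943 to 188 ± 16.4 CPM, and *Ckm*, the muscle creatine kinase, from 2.09 ± 0.507 to 653 ± 22.4 CPM (SD, n = 3 each). *Hrc*, a calcium-binding protein of the sarcoplasmic reticulum, rose 528-fold. *Actn2*, the Z-disc alpha-actinin, had 3, 2 and 2 counts at D0 and 1148, 1363 and 1126 at D5, a ratio of 834 with a 95% exact counting interval from 404 to 2075. The smallest rises were those of *Des*, *Smyd1* and *Xirp1*, which were already at 2014, 172 and 190 CPM in myoblasts and had log2 fold changes of 0.72, 0.28 and 0.23. Scaled to the spike-ins, 10 of the 16 targets were called higher, against 1813 of all 16290 genes tested. The calls lost were those of *Smyd1* at -0.28, *Xirp1* at -0.33, *Des* at 0.16 and *Nr4a1*, an immediate early nuclear receptor, at 1.06.

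Of the 14 target genes with a RefSeq promoter window, 6 hold the MEF2 site (42.9%), against 3.70% of all genes with a window. The list is one of genes studied as MEF2 targets, so this share is a description of the list. Each site is shown in capitals with 20 bases on each side, on the strand of the gene.
Casq2, chr3:102086326-102086375, plus strand: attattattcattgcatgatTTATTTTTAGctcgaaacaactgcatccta
Myoz2, chr3:123034991-123035040, minus strand: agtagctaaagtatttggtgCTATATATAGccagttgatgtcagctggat
Pgam2, chr11:5803847-5803896, minus strand: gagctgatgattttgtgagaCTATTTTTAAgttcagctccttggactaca
Srpk3, chrX:73774318-73774367, plus strand: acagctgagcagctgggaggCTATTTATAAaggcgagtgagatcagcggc
Jun, chr4:95052226-95052275, minus strand: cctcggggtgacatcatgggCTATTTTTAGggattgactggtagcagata
Klf2, chr8:72318924-72318973, plus strand: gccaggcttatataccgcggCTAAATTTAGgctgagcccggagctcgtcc
The sites start from 118 bases before the annotated start, in *Klf2*, to 33 bases before it, in *Jun* and *Myoz2*.

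These 6 genes did not move alike. *Casq2*, the calsequestrin that stores calcium in the sarcoplasmic reticulum, had 1.52, 1.55 and 1.19 CPM at D0 and 889, 977 and 896 CPM at D5. *Pgam2* had 0.641, 0.595 and 0.745 CPM at D0 and 153, 167 and 163 CPM at D5. *Srpk3*, a muscle kinase of splicing factors, rose from 1.26 ± 0.137 to 26.9 ± 1.55 CPM (SD, n = 3 each). *Myoz2*, a Z-disc protein that binds calcineurin, had 5, 2 and 3 counts at D0 and 1580, 1732 and 1596 at D5. *Jun*, an immediate early factor of growth signals, had 196, 194 and 209 CPM at D0 and fell to 100.1, 93.5 and 104 CPM at D5, by 1.01 on the log2 scale (edgeR, adjusted p = 1.6e-20). *Klf2*, a zinc-finger factor, overlapped between the groups, at 4.32 ± 0.523 and 4.09 ± 0.599 CPM (SD, n = 3 each). The 8 targets whose windows hold no site all rose, with log2 fold changes from 0.28 for *Smyd1*, whose sign turns with the spike-ins, to 10.33 for *Mb*.

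**Figure D4:**
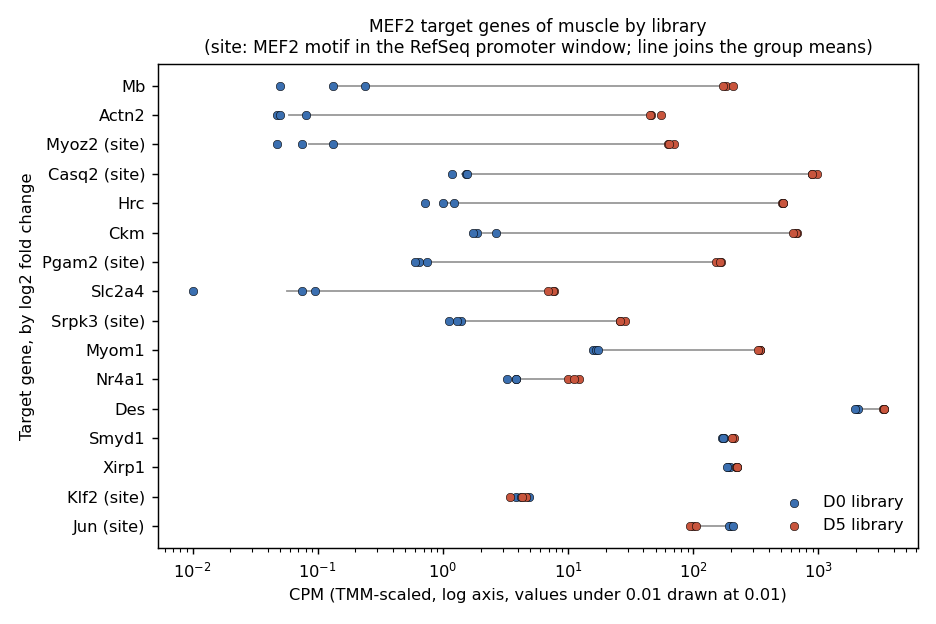
CPM of the 16 MEF2 target genes on a log axis, 1 point per library (blue D0, red D5), with a line between the group means and the genes ordered by log2 fold change. Genes marked with a site hold the MEF2 motif in their promoter window, and they range from *Myoz2* and *Casq2* near the top to *Klf2*, without a call, and *Jun*, which was lower at D5.

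The DNA-binding partners of MEF2 were divided. Of 7 bHLH genes tested, 3 were higher at D5 and 4 lower, where 42.2% of all genes tested were higher and 40.8% lower. With so few genes these counts lie near that background. Besides the MYOD family genes *Myog* and *Myf6*, the E protein *Tcf4* rose from 151 ± 3.60 to 232 ± 5.05 CPM (SD, n = 3 each). The MYOD family genes *Myf5* and *Myod1* were lower. *Myf5* fell from 123 ± 3.02 to 24.6 ± 0.583 CPM and *Myod1* from 207 ± 6.24 to 126 ± 3.95 CPM (SD, n = 3 each). The other E proteins were lower too. *Tcf3* fell to 41.2% of its D0 level, with 147 ± 2.68 and 60.6 ± 1.57 CPM, and *Tcf12* was at -0.20 on the log2 scale (edgeR, adjusted p = 1.8e-06). Scaled to the spike-ins, *Myog* was the only gene of this list called higher and 3 were lower. Of all 16290 genes tested, 1813 were higher and 3747 lower in that fit.

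The other MADS-box factor of muscle moved opposite to MEF2. *Srf*, the serum response factor, fell from 107 ± 1.66 to 42.7 ± 2.17 CPM (SD, n = 3 each), or by 1.32 on the log2 scale (edgeR, adjusted p = 3.7e-23). Its actin-regulated coactivators, listed as *Mkl1* and *Mkl2*, fell to 38.2% and 51.0% of their D0 levels. *Myocd*, myocardin, was near the limit of detection with 13, 17 and 15 counts at D0 and 1, 1 and 0 at D5.

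Repressors of MEF2 moved in both directions. Of 9 corepressors tested, 7 were lower and 2 higher at D5, where 40.8% of all genes tested were lower and 42.2% higher, with a median log2 fold change of -0.36. *Hdac9* fell from 70.5, 68.8 and 68.8 CPM to 5.77, 6.65 and 6.59 CPM, which is 9.14% of its D0 mean (-3.45 on the log2 scale, edgeR, adjusted p = 6.5e-30). *Hdac7* fell to 67.1% and *Cabin1*, a calcineurin-binding repressor, to 53.7% of the D0 level. *Hdac4* rose from 41.0 ± 0.767 to 93.1 ± 4.39 CPM (SD, n = 3 each). *Hdac5* was higher by a log2 fold change of 0.16, which was -0.38 and not past the threshold with the spike-ins. All 7 genes for 14-3-3 proteins were lower, against 40.8% of all genes tested, led by *Ywhah* and *Ywhaq* at 24.3% and 27.9% of their D0 levels, and *Sfn* among them had at most 30 counts in a library. Scaled to the spike-ins, 2 corepressors and 3 of the 14-3-3 genes were called lower and no gene of either list higher. In that fit 3747 of all 16290 genes tested were lower and 1813 higher.

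Of 12 coactivators tested, 8 were lower, 2 higher and 2 had no call, where 40.8% of all genes tested were lower and 42.2% higher, with a median log2 fold change of -0.29. *Ep300*, the acetyltransferase p300, overlapped between the groups, with means of 214 ± 6.63 and 208 ± 7.22 CPM (SD, n = 3 each; edgeR, adjusted p = 0.27). *Kat2b* and *Carm1*, an acetyltransferase and an arginine methyltransferase, fell to 66.8% and 70.2% of their D0 levels. *Ppargc1a*, the PGC-1 alpha coactivator, fell to 76.1%, from 9.34 to 7.11 CPM. *Nfatc4*, a calcineurin-dependent factor, rose 18.3-fold from 0.598 to 11.0 CPM. *Nfatc1* was called higher with a log2 fold change of 0.16, a call lost with DESeq2, total counts, no filter, or when D0 replicate 1, D0 replicate 2 or D5 replicate 3 was left out, and it was at -0.44 with the spike-ins. That scaling left 1 coactivator called higher and 0 lower, where 1813 of all 16290 genes tested were higher and 3747 lower.

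Kinase and calcineurin genes listed here as tied to MEF2 regulation changed in both directions, with 11 of 22 genes higher, 8 lower and 3 without a call. These counts lie near the background of 42.2% higher and 40.8% lower among all genes tested. Calcium-dependent enzymes held the largest rises. *Camk2a* had 1.04, 0.928 and 1.19 CPM at D0 and 86.8, 92.3 and 85.4 CPM at D5, an 83.7-fold difference. *Camk2b* had 3 counts in each D0 library and 223, 226 and 196 counts at D5, a ratio of 115 with a 95% exact counting interval from 60.2 to 253. *Camk4* had 2, 0 and 2 counts at D0 and 60, 87 and 88 at D5, a ratio of 94.3 with an interval from 36.3 to 349. *Camk2d* and *Camk2g* were more abundant and rose far less. *Camk2d* had 94.9 ± 1.27 and 121 ± 3.61 CPM, and *Camk2g* 131 ± 2.25 and 141 ± 4.03 CPM (SD, n = 3 each). Their signs turned with the spike-ins. *Camk1* was lower, with a log2 fold change of -0.15. The calcineurin catalytic subunit *Ppp3ca* rose 3.41-fold, from 46.4 ± 2.26 to 158 ± 1.62 CPM (SD, n = 3 each), while *Ppp3cb* had 129 ± 1.64 and 132 ± 3.92 CPM and overlapping groups. Among the p38 kinases, *Mapk12* rose from 23.5 ± 1.12 to 62.4 ± 1.96 CPM, *Mapk11* was lower, and *Mapk14* had 57.8 ± 2.32 and 55.1 ± 1.92 CPM without a call (adjusted p = 0.12 in edgeR's test). *Mapk7*, the kinase ERK5, and *Prkd1*, protein kinase D1, fell to 61.1% and 18.2% of their D0 levels. Scaled to the spike-ins, 3 genes of this list were called higher and 4 lower, where 1813 of all 16290 genes tested were higher and 3747 lower.

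**Figure D5:**
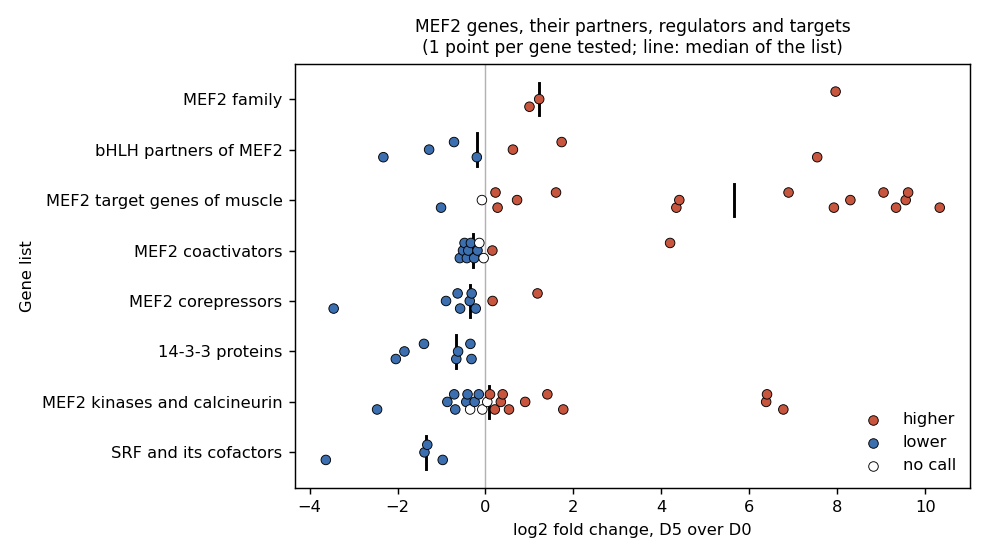
Log2 fold change (D5 over D0) of each gene tested in the MEF2 family and in the 7 lists of partners, targets and regulators, with the list median as a line (red higher, blue lower, white no call at an adjusted p of 0.05). The medians are 5.65 for the target genes and -1.35 for SRF and its cofactors. The calls are those after TMM scaling, and 10 of these genes, all with a log2 fold change under 0.6, change sign when scaled to the spike-ins.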

How the data were processed

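Total RNA of 3 D0 and 3 D5 cultures of C2C12 cells was sequenced. The authors aligned reads to GRCm38 (mm10) and deposited raw featureCounts counts per gene, 1 library per culture, and the submitters' processing notes also name DESeq2 1.6.3. The labels and the paper's methods name different aligners, and the annotation release and strand setting are not given in the sources used here. The 92 ERCC rows and an unnamed row holding the column total entered neither library sizes nor tests. Replicates differed by more than sampling noise, with chi-square values of 2.25 to 3.58 for each degree of freedom.

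TMM factors, filterByExpr and the quasi-likelihood test were from edgeR 4.0.16 in R 4.3.3, with Benjamini-Hochberg adjustment over 16290 genes and a threshold of 0.05. Standard errors were taken as |log2 fold change| divided by the root of the F statistic. TPM used GENCODE M21 exons, which matched 99.93% of gene rows. The scripts were tested on simulated counts in which rises and falls were equal in number, which cannot check the choice of scaling. DESeq2 1.42.0, other scalings, other filters, each library left out and a replicate block were alternatives. Named genes are the MEF2 genes, members of the lists, the 3 genes nearest in profile to each MEF2 gene, and annotated genes overlapping or next to it. The members and lists were chosen with earlier results of these data known. The labels do not say how the cultures were separated, so p-values measure the spread between these libraries, which may be technical.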

Additional observations from a re-analysis of the deposited data

How the results depend on the processing

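Log2 fold changes of *Mef2a*, *Mef2c* and *Mef2d* kept their direction in all 13 alternative fits and their calls in all but one. Leaving out each library gave 0.97 to 1.02 for *Mef2a*, 7.91 to 8.02 for *Mef2c* and 1.19 to 1.24 for *Mef2d*, with 3 members called higher in every such fit. Scaling to the ERCC spike-ins left 1 member called, with *Mef2a* at 0.43 and *Mef2d* at 0.65, and 5560 genes called, 1813 higher and 3747 lower, 67.4% of them lower against 49.2% after TMM. In that fit the lists had 1 bHLH partner higher, 0 corepressors higher and 2 lower, 3 of the 14-3-3 genes lower, 1 coactivator higher and 0 lower, and 3 kinases or calcineurin genes higher and 4 lower. The number of higher coactivators was 1 with DESeq2, with total counts and with no filter, and 1 to 2 over the fits without a library, being 1 without D0 replicate 1, D0 replicate 2 or D5 replicate 3, through the loss of *Nfatc1*. With total counts 1 corepressor was higher. With the longest transcript as length, the shares at D0 and D5 were 58.5% and 45.6% for *Mef2a* (a change of -12.96 percentage points), 41.1% and 37.3% for *Mef2d*, 0.174% and 17.0% for *Mef2c* (a change of 16.8) and 0.191% at D0 for *Mef2b*. Signs reversed under the spike-ins for *Hdac5* (-0.38), *Nfatc1* (-0.44), *Map2k3* (-0.14), *Camk2d* (-0.21), *Camk2g* (-0.46), *Ppp3cb* (-0.51), *Ppp3cc* (-0.024), *Ppp3r1* (-0.36), *Smyd1* (-0.28) and *Xirp1* (-0.33), and *Ppp3cb* was at -0.043 with total counts and -0.012 with no filter. Among the fits without a library, *Klf2* was at -0.17 without D5 replicate 2, at 0.0057 without D0 replicate 3 and at 0.036 without D5 replicate 1. The cause was not tested. With the replicate number as a block the log2 fold changes were 1.00 for *Mef2a*, 7.96 for *Mef2c* and 1.22 for *Mef2d*, and no call of a member changed. Deviations of same-numbered libraries correlated by 0.020 to 0.040 and of others by -0.031 to 0.0053, so every library correlated best with its own number, a hint from the data only, too weak to pair them.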
